A study of Mus musculus with 29 samples.

Results

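Gene expression was compared between CD4+ T cells cultured for 24 h with 10 mM lactic acid and cells cultured for 24 h without it, in both cases without TGF-beta. The comparison uses 6 of the 29 libraries of the series, 3 with lactic acid and 3 without, chosen by their labelled time, cell population and additions and paired by replicate number. All cells came from the spleen of mice of the strain C57BL/6-Foxp3tm1Flv/J, in which a red fluorescent protein (RFP) reports Foxp3, and all 6 libraries hold sorted RFP-negative cells, labelled Tcon. The cells of every group were stimulated with antibodies against CD3 (1.25 µg/ml) and CD28 (2.5 µg/ml), with 50 IU/ml interleukin 2 and 50 µM 2-mercaptoethanol, in RPMI medium with only 0.5 mM glucose. The other 2 lactic acid comparisons of RFP-negative Tcon cells served as a reference: 3 libraries against 3 at 24 h in medium with 3 ng/ml TGF-beta, and 3 with lactic acid against 2 without it at 72 h in medium without TGF-beta. The series title places the study in the induction of FoxP3+ regulatory T cells by acidity, and the present comparison isolates what lactic acid did at the earlier time when TGF-beta, the inducing cytokine, was absent. The source mice were male for replicate 1 and female for replicates 2 and 3. No source states that each replicate came from a separate animal, the age of the mice or the pH of the media. Lactate and acid were added together, so their effects cannot be told apart.

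Lactic acid is the end product of glycolysis. It leaves and enters cells as lactate with a proton, through the monocarboxylate transporters, and it accumulates in tumours and inflamed tissue. A T cell stimulated through its receptor and CD28 leaves quiescence: immediate early genes come on, genes of the naive state are turned down, and the cell prepares to divide with a high use of glucose.

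The 6 libraries held 10842352 to 13563800 counts in genes, with 17810 to 18164 genes detected in each. T cell markers were abundant in both groups, with a summed level of 3587 to 3655 CPM (counts relative to the library size, scaled by TMM) without and 3709 to 3743 CPM with lactic acid over 8 of 8 genes, including Cd4 and Cd3e. Defining markers of myeloid cells (Lyz2, Cd14 and 5 others of 16) were at 0 in all 6 libraries; the sum of the 16, mostly Cd68, was 3.26 to 4.8 CPM without and 2.54 to 5.28 CPM with lactic acid, and the erythroid sum was 0.296 CPM or less. The B cell sum, mostly Ighm, was 252.1 to 271.6 CPM without and 238.0 to 256.4 CPM with lactic acid, while Ms4a1 averaged 0.143 CPM or less. The sum of CD8 T and natural killer markers, mostly Eomes, was 128.3 to 149.5 CPM without and 146.4 to 167.4 CPM with lactic acid. Foxp3 lay at 1.09 to 1.33 CPM without and 0.920 to 1.97 CPM with lactic acid, low in all 6 libraries of the RFP-negative sort. Of 13 mitochondrially encoded genes 5 were listed at 0 in all 6 libraries, among them mt-Co2 and mt-Co3, so their sum covers part of the set. It was 6452, 6116 and 8391 CPM in replicates 1 to 3 without lactic acid and 7473, 8901 and 12301 CPM with it. It was higher with lactic acid in all 3 same-numbered pairs. An exact two-sided permutation test over the 6 libraries, which did not use the pairs, gave p = 0.2. In that test 3 libraries against 3 cannot go below 0.1. The part of these transcripts in the results below was not tested. The lactic acid library of replicate 3 held the highest value and was also the farthest from its replicates across genes.

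Lactic acid changed the expression of a moderate number of genes by small amounts, and more of them upward than downward. Of 14375 genes tested, 614 (4.27%) were called, that is, had an adjusted p below 0.05 in edgeR's quasi-likelihood test with replicate pairs as a block; 449 (3.12%) were higher and 165 (1.15%) lower with lactic acid. Only 45 of the rises and 8 of the falls reached 2-fold, and the median size of a called change was 0.44 on the log2 scale. All 614 moved the same way in all 3 same-numbered pairs, and in 487 the libraries of both groups did not overlap, as they did not in 21.9% of all genes tested. Most of these calls depended on the pairing: without the replicate block 12 genes (0.0835%) were called, 11 higher (0.0765%) and 1 lower (0.00696%), and 1027 had an unadjusted p below 0.05. The count fell to 445, 299 and 177 without control replicate 1, 2 or 3, and to 226, 255 and 200 without lactic acid replicate 1, 2 or 3. All 614 kept their direction in each of these 6 fits, 123 stayed called in every one, and 136 in none. The p-values rest on the spread that remains after the block, estimated over all 29 libraries of the series. That spread may in part be technical.

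**Figure D1:**
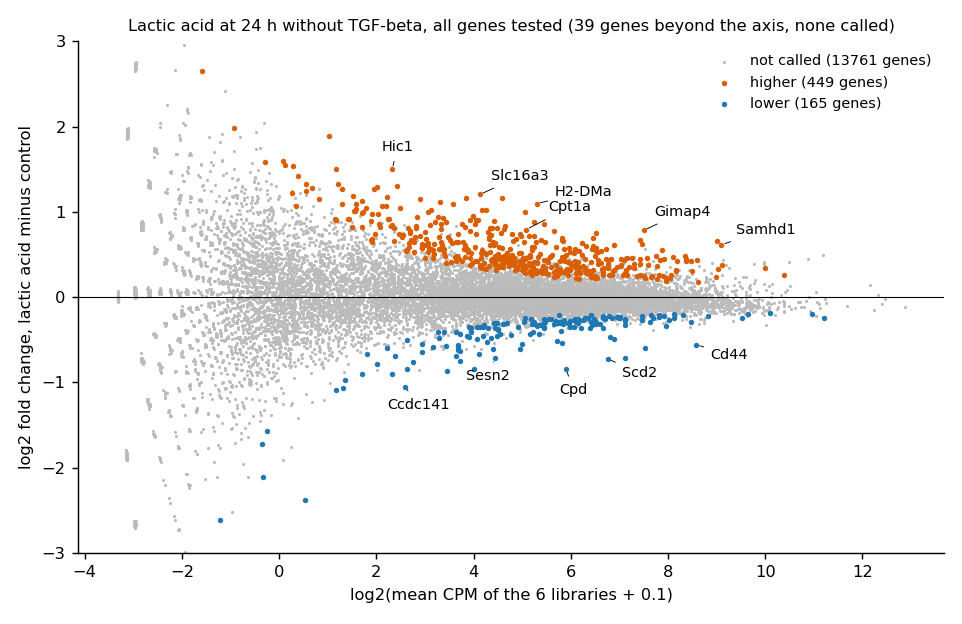
Each point is 1 of the 14375 genes tested, with the log2 of its mean CPM over the 6 libraries plus 0.1 on the x axis and its log2 fold change with lactic acid on the y axis. Orange points are the 449 genes called higher and blue points the 165 called lower; 39 genes, none of them called, lie beyond the y axis of -3 to 3.

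The 12 genes that were called both with and without the block were led by Hic1, which encodes a transcriptional repressor. It was measured at 2.52, 2.68 and 2.49 CPM in the 3 control libraries and at 8.36, 7.39 and 6.01 CPM in the 3 lactic acid libraries. Every lactic acid library was above every control library, the log2 fold change was 1.5 ± 0.15 (SE), and the adjusted p was 1.32e-05 with and 0.000448 without the block. Of the other 11, Ptprf (a receptor tyrosine phosphatase, log2 fold change 1.02), Mr1 (the class I-like molecule that presents vitamin B metabolites, 1.27), H2-Oa (a class II accessory protein, 1.28) and Ppm1j (a protein phosphatase, 1.07) rose by 2-fold or more. Gm19585 (0.85), Cpt1a (0.79), Plin3 (0.52), Mapk3 (0.44), Unc13d (0.40) and Tbl1xr1 (0.35) rose by less than 2-fold, and Pkp4 (plakophilin 4, -0.52) was the only 1 of the 12 to fall. Unlike Hic1, the other 11 lay just under the threshold without the block, with adjusted p-values of 0.0472 to 0.0481. With 1 library left out in turn and the block kept, H2-Oa was called in 5 of the 6 fits and Ppm1j in 4.

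Among the 12 largest rises at 5 CPM or more on average, the transporter gene Slc16a3 stands closest to the compound added. Slc16a3 encodes MCT4, the monocarboxylate transporter through which glycolytic cells export lactate. It was measured at 13.7, 11.1 and 6.94 CPM in control replicates 1 to 3 and at 27.4, 26.9 and 18.5 CPM in the lactic acid libraries. All 3 lactic acid libraries were above all 3 controls, and the level went from 10.6 ± 3.42 to 24.3 ± 5.02 CPM (SD, n = 3 each), a log2 fold change of 1.20 ± 0.14 (SE, adjusted p = 4.05e-05). It was the only 1 called of 10 tested genes for lactate and pyruvate transport and lactate dehydrogenase, where 4.27% of all genes were called. The median log2 fold change of these 10 was 0.00, as was that of all genes. Slc16a1 encodes MCT1, the other main lactate transporter of T cells, and went from 301 ± 27.2 to 300 ± 21.9 CPM (adjusted p = 0.986). The lactate dehydrogenase genes Ldha (1338 ± 111 to 1295 ± 160 CPM) and Ldhb (17.5 ± 1.11 to 19.2 ± 1.13 CPM) were not called either, with adjusted p-values of 0.839 and 0.522.

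Cpt1a, Plin2 and Plin3, genes of fatty acid use and lipid storage, rose while Scd2, which makes monounsaturated fatty acids, fell. Cpt1a, the enzyme that commits fatty acids to import into mitochondria, was measured at 23.1, 24.1 and 26.8 CPM without and at 38.8, 40.6 and 49.3 CPM with lactic acid. The groups did not overlap, and the log2 fold change was 0.79 ± 0.12 (SE, adjusted p = 0.000344). Plin2, a coat protein of lipid droplets, went from 6.15, 6.69 and 6.49 CPM to 12.5, 10.8 and 12.4 CPM, a log2 fold change of 0.88 ± 0.16 (SE, adjusted p = 0.00182) with no overlap of the groups. In the list of PPAR target and lipid droplet genes 5 of 16 tested members rose (Cpt1a, Plin3, Plin2, Acadl and Slc25a20) and 1 fell (Abcg1, a sterol exporter, log2 fold change -0.65), with a median of 0.19. Among all genes tested 3.12% were called higher and 1.15% lower. Cpt1a, Slc25a20 and Acadl are also the 3 risers among 23 tested genes of fatty acid oxidation, where the carnitine carrier Slc25a20 rose by 0.32 and the dehydrogenase Acadl by 0.30. The median of that list was 0.08. With each of the 6 libraries left out in turn, 3 to 4 lipid droplet genes and 1 to 2 oxidation genes were called higher. Over all genes tested these fits called 137 to 335 higher. Scd2 went from 156, 138 and 112 CPM to 94.8, 84.5 and 66.1 CPM and fell by 0.73 ± 0.11 (SE) on the log2 scale (adjusted p = 0.000344). It was the only 1 called of 13 tested genes of fatty acid synthesis, and none of 23 sterol synthesis genes was called.

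Few other genes of fuel use were called, where 3.12% of all genes were called higher and 1.15% lower. Of 19 glycolysis genes only Tpi1, triose phosphate isomerase, was called (281 ± 26.4 to 380 ± 53.2 CPM, log2 fold change 0.43 ± 0.10 SE), and the list's median was 0.13. None of 19 citrate cycle genes, 11 genes of the pyruvate dehydrogenase complex and its kinases or 35 nuclear genes of the respiratory chain was called, with medians of -0.07, 0.00 and -0.07. None of the 7 tested mitochondrially encoded genes was called either, though all 7 fold changes were positive, with a median of 0.42. Pdk1, a kinase that holds back pyruvate dehydrogenase, was at 107 ± 3.33 CPM without and 128 ± 1.5 CPM with lactic acid (adjusted p = 0.106). Txnip, an inhibitor of glucose uptake whose transcription follows sugar supply, was measured at 18.3, 24.5 and 35.6 CPM without and 27.8, 38.5 and 65.3 CPM with lactic acid. It was higher in each pair although the groups overlapped, and rose by a log2 fold change of 0.72 ± 0.15 (SE, adjusted p = 0.00673). Its call was lost without 2 of the 6 libraries left out singly, where its largest adjusted p was 0.111. Arrdc4, which is regulated like Txnip, was too low to compare, at 0.0741 to 0.820 CPM in the 6 libraries. Vegfa (vascular endothelial growth factor A, log2 fold change 0.64) and Bnip3l (a mitophagy receptor, 0.36) were the 2 risers among 20 hypoxia genes, whose median was 0.26. Neither was called in any fit that left out a library.

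No gene of acid sensing was called. Gpr65, a proton-sensing receptor of lymphocytes, went from 50.3 ± 3.53 to 57.5 ± 2.85 CPM (adjusted p = 0.317). None of the 20 tested genes of proton sensing and acid handling passed. Among 37 lysosome and autophagy genes, 5 rose, against 3.12% of all genes, and none fell, with a median of 0.11. Abcb9, a peptide transporter of the lysosomal membrane, was the largest of them: 11.9, 10.4 and 12.2 CPM in controls and 22.4, 19.3 and 22.7 CPM with lactic acid. Its groups lay far apart, with a log2 fold change of 0.90 ± 0.13 (SE, adjusted p = 0.000344). Tfeb, the transcription factor that drives lysosomal genes, rose by 0.48 and Psap, the precursor of sphingolipid activators, by 0.23. Leaving out 1 library in turn left 1 to 3 of the list called. The vacuolar proton pump, which acidifies lysosomes, had 1 of 17 genes higher (Tcirg1, 0.41) and 1 lower (Atp6v1e1, -0.21).

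**Figure D2:**
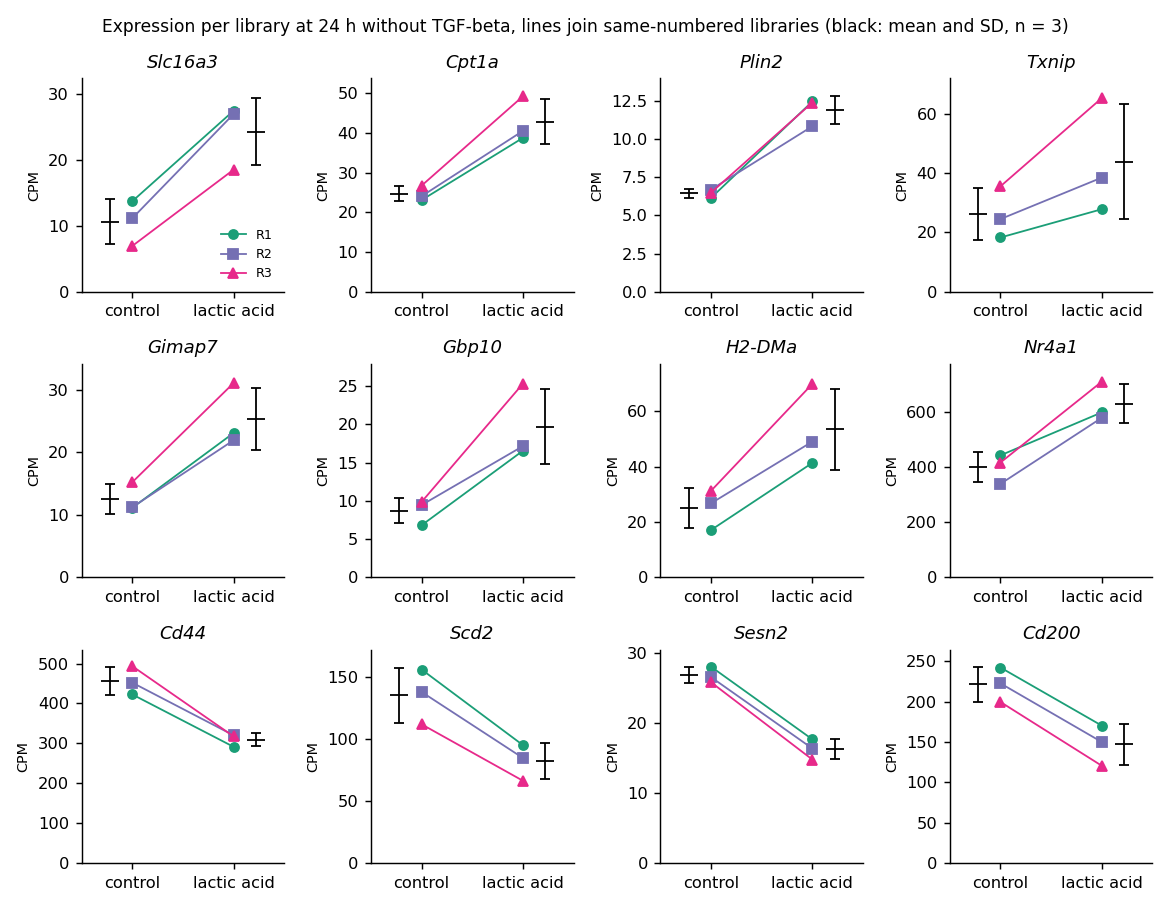
Expression in CPM of 12 genes in each of the 6 libraries, with control libraries on the left and lactic acid libraries on the right of each panel, lines joining libraries of the same replicate number (R1 to R3) and black marks giving the mean and SD of 3. The line of every pair rises for Slc16a3, Cpt1a, Plin2, Txnip, Gimap7, Gbp10, H2-DMa and Nr4a1 and falls for Cd44, Scd2, Sesn2 and Cd200; for Txnip the libraries of both groups overlap.

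Several transcripts of the naive and quiescent state rose. Of 29 tested members 11 rose and none fell, against 3.12% higher among all genes, and the list's median log2 fold change was 0.30 against 0.00 for all genes. Gimap genes, which encode GTPases of lymphocytes, made up 6 of the 11. Gimap7 was measured at 11.1, 11.2 and 15.2 CPM without and 23.1, 21.9 and 31.1 CPM with lactic acid. The groups did not overlap, and it rose by a log2 fold change of 1.02 ± 0.18 (SE, adjusted p = 0.00197). Gimap4 went from 114, 125 and 157 CPM to 186, 209 and 295 CPM (0.78 ± 0.11 SE, adjusted p = 0.00032), again with no overlap, and Gimap3, Gimap6, Gimap8 and Gimap5 rose by 0.43, 0.44, 0.45 and 0.28. Reads may be split between Gimap3 and Gimap5, which are nearly identical, so their separate values are uncertain. The other risers were the egress receptor S1pr1 (0.75), the kinase Txk (0.46), the PI3 kinase inhibitor Pik3ip1 (0.85), the surface antigen Ly6c1 (0.73) and the antiproliferative gene Btg2 (0.37).

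The defining homing and transcription factor genes of naive T cells were not among them. Ccr7, Lef1, Tcf7 and Il7r had log2 fold changes of 0.08, 0.01, 0.24 and 0.30 and adjusted p-values of 0.325 to 0.994. Klf2, which controls egress genes, was at 12.3, 19.8 and 28.4 CPM in controls and 15.5, 23 and 52.9 CPM with lactic acid (adjusted p = 0.0542). S1pr1 showed the same spread, with 13.6, 20.6 and 33.3 CPM against 18.0, 33.2 and 67.1 CPM. Both genes were higher in each lactic acid library than in its own control, and both were lowest in replicate 1 and highest in replicate 3 of either medium, so that the groups overlapped. Without the lactic acid library of replicate 3, which held the most mitochondrial transcripts (12301 CPM), 5 of the list were called, and the count ranged from 3 (without control replicate 3) to 11 (without control replicate 1) over the 6 libraries left out. In bulk RNA, fewer cells in a state and less RNA of a gene per cell cannot be told apart.

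Cd44, the adhesion receptor that T cells acquire on activation, moved the other way. It was measured at 423, 452 and 494 CPM in controls and 291, 320 and 317 CPM with lactic acid, and fell by 0.56 ± 0.08 (SE) on the log2 scale (adjusted p = 0.00032). Cd200, an inhibitory ligand, went from 242.4, 222.7 and 199.6 CPM to 170.3, 150.0 and 120.5 CPM and fell by 0.60 ± 0.07 (SE, adjusted p = 3.16e-05). In neither gene did the groups overlap, and each was called without any single library. Other falls among genes that averaged 5 CPM or more were Ccdc141 (-1.05), Penk (proenkephalin, -0.86), Ptpn5 (-0.85), Cpd (carboxypeptidase D, -0.84), the G protein regulators Rgs2 and Rgs1 (-0.84 and -0.71) and Vim (the filament protein vimentin, -0.75). Ccdc141 was at 7.71, 7.87 and 8.36 CPM without and 3.76, 4.02 and 3.73 CPM with lactic acid, with every lactic acid library below every control.

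Among 38 immediate early and activation genes 5 rose and 2 fell, where 3.12% of all genes were called higher and 1.15% lower, and the median was 0.16. Nr4a1, an early gene whose level follows the strength of T cell receptor signals, was at 443, 340 and 417 CPM without and 599, 580 and 711 CPM with lactic acid. All lactic acid libraries were above all controls (log2 fold change 0.65 ± 0.12 SE, adjusted p = 0.00208). The early growth response genes Egr1, Egr3 and Egr2 rose by 0.62, 0.67 and 0.37, and the AP-1 gene Fosl2 by 0.58. Dusp4, a phosphatase that limits MAP kinase signals, fell by 0.37 on the log2 scale. Counts of this list ranged from 2 to 6 higher, with 2 lower each time, when 1 library was left out, and were 2 and 2 without lactic acid replicate 3. Cd69 (0.12), Myc (0.10) and Il2ra (-0.09) were not called, with adjusted p-values of 0.639, 0.673 and 0.726. In the MAP kinase list 3 of 24 genes rose, against 3.12% of all genes: Mapk3, which encodes the kinase ERK1 (17.0, 18.4 and 17.0 CPM to 23.4, 23.6 and 24.1 CPM), Rasgrp1, which activates Ras below the T cell receptor (0.44), and Rps6ka1, a kinase that ERK activates (0.22). With 1 library left out 1 to 2 of the list were called; Mapk3 was called each time, Rasgrp1 in 1 of the 6 fits and Rps6ka1 in none.

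Among 25 effector cytokine genes 4 rose and 1 fell, against 3.12% higher and 1.15% lower among all genes, and 2 to 3 rose and 0 fell with 1 library left out. The type 2 cytokine Il13 was measured at 7.04, 6.44 and 9.07 CPM without and 13.4, 15.4 and 19.5 CPM with lactic acid, with no overlap (log2 fold change 1.09 ± 0.22 SE, adjusted p = 0.00428). Il4, its neighbour in the type 2 programme, went from 1.63, 1.42 and 3.91 CPM to 4.26, 4.51 and 8.02 CPM (1.29 ± 0.33 SE, adjusted p = 0.0288), and lost its call without any 1 of the 6 libraries. Il5 (0.52) and Gata3, the transcription factor of that programme (0.15), were not called, both with an adjusted p of 0.706. The lymphotoxin genes Ltb and Lta rose by 0.46 and 0.36, and the macrophage growth factor gene Csf1 fell by 0.76 on the log2 scale, although it too was called in no fit without 1 library. The main T cell cytokines varied more between replicates than between media. Il2 was at 146, 89.4 and 87.0 CPM without and 170, 104 and 81.3 CPM with lactic acid (adjusted p = 0.842), and Ifng at 40.8, 26.9 and 47.0 CPM against 31.9, 26.1 and 30.5 CPM (adjusted p = 0.578). Il6 had 0 counts in the 3 controls and 1 count in the 3 lactic acid libraries. Unc13d, which primes granules for release, rose as 1 of 19 genes of cytotoxic granules and exocytosis, by 0.40.

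Regulatory T cell genes were mostly not called. Izumo1r, which encodes folate receptor 4, went from 82.7, 83.4 and 91.0 CPM to 122.2, 121.5 and 136.5 CPM and rose by a log2 fold change of 0.56 ± 0.09 (SE, adjusted p = 0.000929). The inhibitory receptor gene Tigit rose by 0.52, and these were the 2 called of 22 genes, where 4.27% of all genes were called. The list's median was 0.08. Foxp3 (0.28 ± 0.47 SE, adjusted p = 0.818) and Ikzf2, which encodes Helios (11.2 ± 2.07 to 8.15 ± 1.03 CPM, adjusted p = 0.103), were not called.

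Some interferon-induced genes rose. Of 37 tested members 9 rose, against 3.12% of all genes, and none fell. Higher in all 3 pairs were 30 of the 37, as were 3294 of all 14375 genes tested. The median log2 fold change was 0.57. Such genes are switched on by interferons through a complex that includes STAT2 and IRF9 and binds the interferon-stimulated response element. The promoters of 4 of the risers in which the core of this element was found are shown, because it is the sequence by which the family is known to be controlled. The sequences are the 250 bases before the gene start in RefSeq on GRCm38.p6, a build other than the one used for counting, 5′ to 3′ on the gene's own strand. Capitals mark matches to the core of the element, GAAA, any 2 bases, GAAA, which on this strand read TTTC, any 2 bases, TTTC.
Ifit3 (chr19:34583279-34583528, plus strand): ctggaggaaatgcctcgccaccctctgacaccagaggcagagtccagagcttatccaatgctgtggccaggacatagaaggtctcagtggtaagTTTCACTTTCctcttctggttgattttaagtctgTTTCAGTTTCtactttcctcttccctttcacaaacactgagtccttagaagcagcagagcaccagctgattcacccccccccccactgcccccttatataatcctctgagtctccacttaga
Stat2 (chr10:128270248-128270497, plus strand): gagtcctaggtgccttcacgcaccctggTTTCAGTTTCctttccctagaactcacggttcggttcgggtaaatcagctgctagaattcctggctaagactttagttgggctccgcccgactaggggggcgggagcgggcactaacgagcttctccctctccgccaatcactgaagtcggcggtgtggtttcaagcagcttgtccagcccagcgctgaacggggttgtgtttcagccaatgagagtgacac
Gbp7 (chr3:142530086-142530335, plus strand): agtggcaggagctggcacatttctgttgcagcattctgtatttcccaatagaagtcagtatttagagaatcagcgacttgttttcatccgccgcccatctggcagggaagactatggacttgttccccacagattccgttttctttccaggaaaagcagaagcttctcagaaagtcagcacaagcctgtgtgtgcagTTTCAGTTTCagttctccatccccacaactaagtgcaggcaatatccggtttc
Gbp3 (chr3:142559794-142560043, plus strand): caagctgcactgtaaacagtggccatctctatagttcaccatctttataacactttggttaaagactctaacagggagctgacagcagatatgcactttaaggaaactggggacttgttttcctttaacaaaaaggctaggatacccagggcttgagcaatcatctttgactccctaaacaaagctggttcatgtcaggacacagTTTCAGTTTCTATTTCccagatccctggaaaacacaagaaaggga
The Ifit3 promoter holds 2 matches, which begin 156 and 122 bases before the start, and the Gbp3 promoter shown 2 that overlap each other. A second Gbp3 start in RefSeq, and the promoters of the risers Irf7 and Ddx58, held no match in the same length. Searched on both strands, the core was present in 325 of 9896 tested genes with a promoter sequence (3.28%), in 16 of 25 genes of the interferon list (64%), in 28 of 348 genes called higher (8.05%) and in 3 of 127 called lower (2.36%). Of the 9 interferon genes that rose, 7 had a promoter sequence and 5 held the core. The motif was chosen after the values had been seen, and a match is not evidence of binding.

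Gbp10, a guanylate-binding protein of interferon-induced defence, had the largest fold change of the 9. It was at 6.82, 9.46 and 9.87 CPM in controls and 16.6, 17.2 and 25.3 CPM with lactic acid, with no overlap (log2 fold change 1.17 ± 0.16 SE, adjusted p = 0.000203). Its relatives Gbp7, Gbp6 and Gbp3 rose by 0.76, 0.57 and 0.51. Stat2 went from 36.0, 39.4 and 46.4 CPM to 46.9, 57.6 and 83.3 CPM (0.59 ± 0.10 SE, adjusted p = 0.000985). Irf7, the factor that amplifies the interferon response, was at 3.48, 6.61 and 11 CPM without and 5.43, 9.85 and 23 CPM with lactic acid (0.80, adjusted p = 0.0152). Irf7, Ifit3 and Ifit1bl1 varied with the replicate number in both media and their groups overlapped, but each was higher with lactic acid in all 3 pairs. Ddx58, the RNA sensor RIG-I, rose by 0.83. Several best known members were not called, among them Isg15 (3.63 ± 0.527 to 4.16 ± 0.972 CPM) and Ifit1 (7.54 ± 2.44 to 12.5 ± 2.49 CPM, adjusted p = 0.147). The number higher ranged from 3 (without control replicate 3) to 10 (without control replicate 1), and was 4 without the lactic acid library of replicate 3.

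Some genes of antigen presentation rose as well, where 3.12% of all genes were called higher. In the class I list 5 of 20 members rose by small amounts and none fell, with a median of 0.20: H2-K1 (1209 ± 96.1 to 1453 ± 161 CPM, log2 fold change 0.26), H2-T22 (0.25), H2-T23 (0.25), H2-Q7 (0.42) and the peptide transporter gene Tap2 (0.21). Class I genes resemble each other closely, so reads may be split among them, and only 0 to 2 of the list stayed called with 1 library left out. The accessory genes of class II loading, a family chosen after its values were seen, rose by more. H2-DMa, part of the complex that loads peptides on class II molecules, was at 17.1, 26.8 and 31.3 CPM without and 41.4, 49.1 and 70.0 CPM with lactic acid, with no overlap (1.10 ± 0.14 SE, adjusted p = 6.83e-05). H2-Oa and H2-Ob, the inhibitors of that complex, and H2-DMb1 rose by 1.28, 1.33 and 1.59 from levels of 1.22 CPM or less, and H2-DMb2 went from 2.09 to 4.03 CPM (adjusted p = 0.0604). None of the 8 tested B cell markers was called, and 4 of the 8 fold changes were positive, with a median of 0.06. The class II gene Cd74 averaged 15.4 CPM without and 13.4 CPM with lactic acid. H2-Aa averaged 1.35 and 1.57 CPM, H2-Ab1 0.948 and 1.15 CPM, and H2-Eb1 0.799 and 1.12 CPM. Cd79b averaged 0.577 and 0.619 CPM, and Cd22 0.184 and 0.354 CPM. The B cell sum, mostly Ighm, was lower with lactic acid in all 3 pairs.

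**Figure D3:**
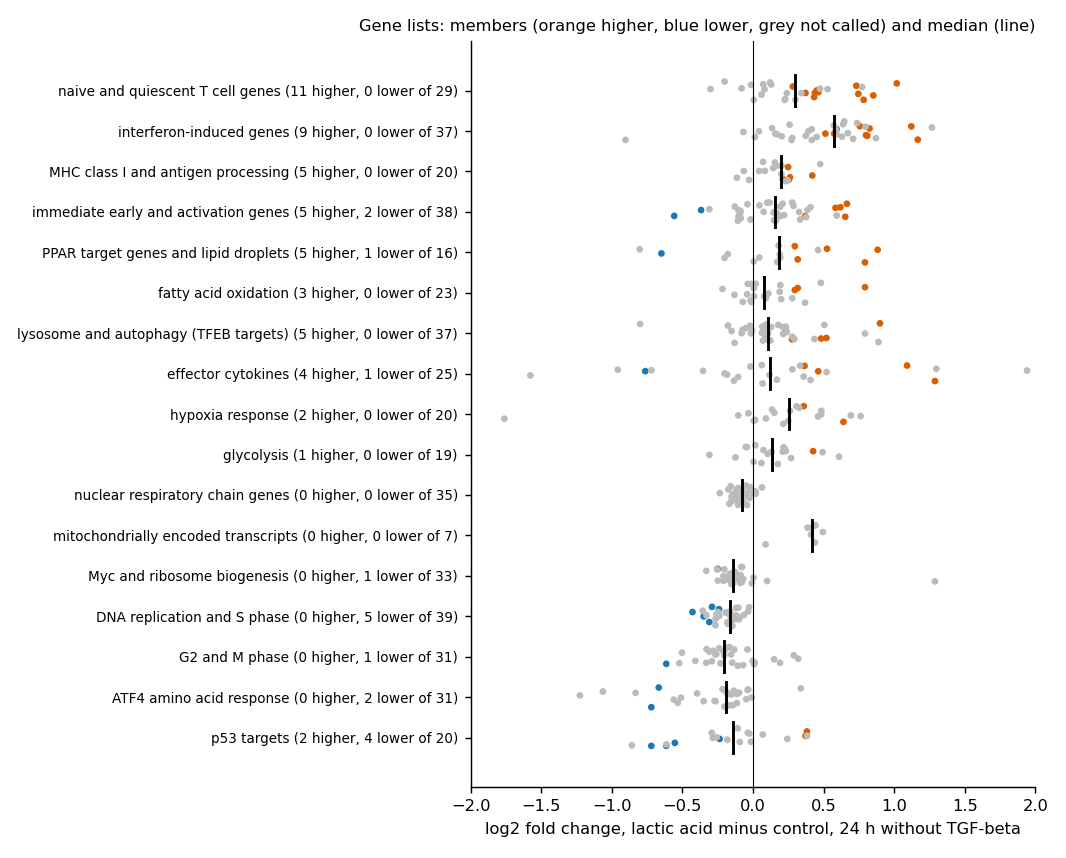
Log2 fold change with lactic acid at 24 h without TGF-beta of the tested members of 17 gene lists, orange where called higher, blue where called lower and grey where not called, with a black line at the median of each list. The naive, interferon and class I lists lie mostly to the right of 0 and the DNA replication, ribosome biogenesis and ATF4 lists mostly to the left; 2 members lie beyond the x axis of -2 to 2.

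A few genes of DNA replication fell, where 1.15% of all genes were called lower. All 39 tested genes of DNA replication and S phase had a negative fold change, with 31 negative in all 3 pairs, but only 5 were called: the replication licensing genes Cdc6 (-0.35) and Mcm5 (-0.24), the clamp loader Rfc3 (-0.29), thymidylate synthase Tyms (-0.43) and Gins2 (-0.31). The median was -0.16, and 3459 of all 14375 genes tested were lower in all 3 pairs. Mcm5 was at 834, 803 and 738 CPM without and 747, 691 and 583 CPM with lactic acid, lower in each pair while the groups overlapped. These 5 calls were fragile: none remained when control replicate 2, control replicate 3, lactic acid replicate 2 or lactic acid replicate 3 was left out, 1 was made without lactic acid replicate 1 and 6 without control replicate 1. Of 31 genes of G2 and mitosis 1 fell (Gtse1, -0.61), with a median of -0.20, and of 33 Myc target and ribosome biogenesis genes only Npm1 (nucleophosmin, -0.25) was called, with 29 fold changes negative in all 3 pairs. Cdk4, the kinase of G1 entry, fell from 485 ± 14.9 to 417 ± 27.3 CPM, and Rbl2, a retinoblastoma-like repressor of the cell cycle, rose by 0.41.

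Some genes of the amino acid and p53 stress responses fell. Among 31 genes of the ATF4 amino acid response none rose and 2 fell, where 1.15% of all genes fell. In all 3 pairs 21 of the 31 were lower, as were 3459 of all 14375 genes tested, and the median was -0.19. Sesn2, a sestrin that restrains mTORC1, went from 28.0, 26.5 and 25.8 CPM to 17.6, 16.3 and 14.8 CPM with no overlap, and fell by 0.72 ± 0.12 (SE) on the log2 scale (adjusted p = 0.000826). Asns, asparagine synthetase, went from 21.2 ± 0.379 to 13.4 ± 1.08 CPM (-0.67, adjusted p = 0.048), but was called in no fit that left out a library. Of 20 p53 targets 4 fell and 2 rose, against 1.15% and 3.12% of all genes, and with 1 library left out 2 to 3 fell and 0 to 2 rose (2 and 0 without lactic acid replicate 3). Cdkn1a, the p21 inhibitor of cell cycle kinases, was at 38.5, 39.1 and 36.5 CPM without and 27.8, 23.7 and 26.3 CPM with lactic acid (-0.55 ± 0.09 SE, adjusted p = 0.0009), and Sesn2, Gtse1 and Bax fell with it, while Sesn1 (0.38) and Btg2 (0.37) rose. None of 22 unfolded protein response genes and none of 14 heat shock chaperones was called.

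The lactic acid effect at 24 h was then set beside that in medium with TGF-beta, measured in 6 other libraries of the same time. The interaction, which tests whether the effect without TGF-beta differs from the effect with it, called 0 of 14375 genes in edgeR and 0 in DESeq2, with 612 at an unadjusted p below 0.05 in edgeR. Of the 449 genes called higher without TGF-beta, 444 had a positive fold change with it as well, and of the 165 called lower, 153 a negative one; over all genes tested the sign was the same in 69.4%. Median log2 fold changes of the 449 were 0.48 without and 0.39 with TGF-beta, and of the 165 they were -0.33 and -0.25. Slc16a3 (1.20 ± 0.14 without, 0.74 ± 0.15 with TGF-beta, SE), Cpt1a (0.79 and 0.90), Gimap7 (1.02 and 1.17), Abcb9 (0.90 and 1.39) and Cd44 (-0.56 and -0.52) are examples. The genes with the smallest interaction p were Atp1b1 (-0.11 without, 0.48 with TGF-beta), Dact3 (1.98 and -1.56, from 6 and 24 counts in the groups without TGF-beta), Zfp36l1 (0.44 and -0.08), Plekhf2 (-0.01 and 0.40) and Ptger4 (-0.19 and -0.58), with adjusted p-values of 0.314 to 0.414.

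At 72 h without TGF-beta the effect differed more. The interaction with time called 674 genes (4.69%), with the effect at 24 h above that at 72 h in 420 (2.92%) and below it in 254 (1.77%). This count rested on few libraries: it was 0 without the replicate block (1313 at an unadjusted p below 0.05) and 28 without replicate 1 of the 72 h control, which has only 2 libraries. Without its replicate 2 it was 1356, and without 1 of the other libraries 146 (24 h control replicate 3) to 700 (72 h lactic acid replicate 1). It fell by more than 1.5 times also without 24 h control replicate 2 (177), 24 h lactic acid replicate 1, 2 or 3 (232, 239 and 152) and 72 h lactic acid replicate 2 (289). Of the 449 genes called higher at 24 h, 219 had a positive fold change at 72 h, with a median of -0.01, and 172 (38.3%) differed between times. Of the 165 called lower, 97 had a negative fold change at 72 h, with a median of -0.05, and 43 (26.1%) differed. Both sets were chosen by their fold change at 24 h, which is also part of the difference tested. The smaller medians at 72 h and the shares that differed therefore follow in part from that choice. Over all genes tested the sign was the same at both times in 44.0%. Whether both times belong to 1 experiment is not stated in the sources used here, so time and a difference between experiments cannot be told apart.

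Among single genes, Slc16a3 had a log2 fold change of 1.20 ± 0.14 (SE) at 24 h and 0.01 ± 0.12 at 72 h (interaction adjusted p = 0.00147), and H2-DMa 1.10 and 0.13 (adjusted p = 0.0174). Calcoco1, an autophagy receptor, turned from 0.58 to -0.68 (adjusted p = 3.22e-05), Slc25a23, a mitochondrial carrier, from 0.84 to -0.41 and Pdk2, a pyruvate dehydrogenase kinase, from 0.47, which was not called at 24 h, to -2.34 (both adjusted p = 0.000468). Plekhg2 (0.54 and -0.49) and Bcl9 (0.32 and -0.42) were the next 2. Nr4a1 (0.65 and -0.29), Stat2 (0.59 and -0.15) and Sesn2 (-0.72 and 0.21) also differed between times. Values at 24 and 72 h were closer for Cd44 (-0.56 and -0.56), Il13 (1.09 and 1.07), Penk (-0.86 and -1.05), Csf1 (-0.76 and -0.92), Rgs2 (-0.84 and -0.85), Hic1 (1.5 and 0.96) and Pkp4 (-0.52 and -0.60), none of which was called for a difference between times (adjusted p of 0.134 or more).

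**Figure D4:**
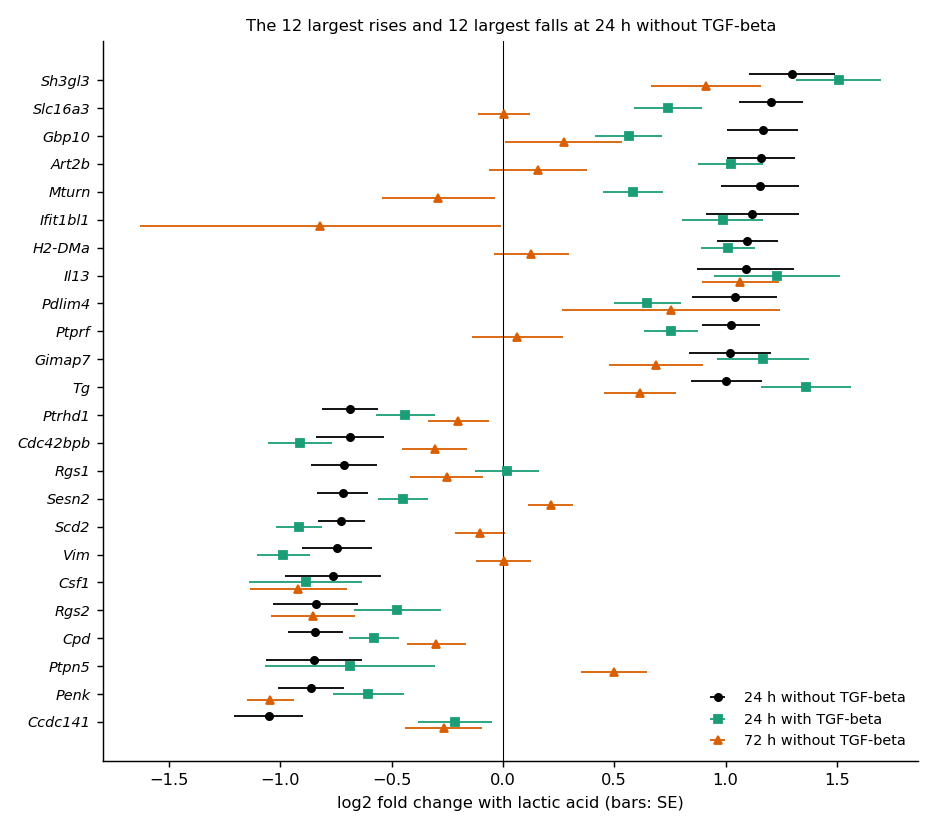
Log2 fold change with lactic acid, with its SE, of the 12 most raised and the 12 most lowered genes among those called at 24 h without TGF-beta that averaged 5 CPM or more (black circles), beside their values at 24 h with TGF-beta (green squares) and at 72 h without it (orange triangles). Apart from Rgs1 the green squares lie on the side of 0 of the black circles, whereas several orange triangles, among them those of Slc16a3, Vim, Sesn2 and Ptpn5, lie at or across 0.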

How the data were processed

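Polyadenylated RNA was sequenced from strand-specific libraries as single reads of 65 bases, as the labels' protocols state. Per the submitters' processing notes, STAR 2.7.3a, HTSeq 0.12.4, DESeq2 1.30.1 and the build GRCm39 were used. The deposited values are whole-number counts per gene, without normalization; neither the annotation release nor the strand setting of the counting is stated in those notes, which makes values of overlapping, antisense and near-identical genes (Gimap3 and Gimap5, Ifit3 and Ifit3b, class I genes) uncertain. Of 55414 Ensembl identifiers 52081 were matched to a symbol in annotation tables used for names alone; the other 3333 took 0.332% to 0.810% of the counts. Entries that name no gene (no feature 6.13% to 8.57%, ambiguous 1.08% to 1.13%, low alignment quality 13.9% to 15.0%) entered neither library sizes nor tests.

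All 29 libraries entered 1 fit with edgeR 4.0.16 in R 4.3.3: TMM scaling, filterByExpr (minimum count 10, minimum total 15), 10 groups, and a block for replicate number inside each time, because libraries were to be paired by that number. Pairing was checked: deviations from group means correlated at 0.393, 0.184 and 0.362 across genes in same-numbered libraries (0.227, 0.128 and 0.329 on autosomal genes) and at -0.314 to -0.0591 in others (-0.24 to 0.0375). Deviations within a group cancel out, so the low values in the others follow in part from the same-numbered ones and are no separate check. Genes with a Benjamini-Hochberg adjusted p below 0.05 in the quasi-likelihood test are called. Fold changes use a prior count of 0.125, and the SE is the absolute log2 fold change divided by the square root of F. Levels are CPM on TMM library sizes.

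The fit was tested on simulated data for this comparison (14264 genes). It recovered 76% of 100 genes changed by 0.5 and 98% of 100 genes changed by 1 on the log2 scale. Of its 180 calls 6 were false. The changed genes were drawn from those averaging 5 CPM or more over all 29 libraries, so recovery of lower genes was not tested. The pairing was built into the simulated counts, so the simulation cannot show false calls that arise from the pairing. Gene lists, panel, motif and comparisons were chosen with earlier results of these data known. Named are: the 12 largest rises and falls among called protein-coding genes averaging 5 CPM or more and with 1 direction in all 3 pairs; up to 4 called members, by p, of each list with at least 3 called; genes also called without the block; a panel of metabolic, acid-sensing and T cell genes; and the 5 smallest p-values of each interaction. Other genes with values were chosen after these were seen. Alternatives were the fit without the block, the 24 h or the 6 compared libraries alone, DESeq2 1.42.0, RLE scaling, no filter, and each library left out in turn. A few of the genes that this rule names are not reported here.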

Additional observations from a re-analysis of the deposited data

Results flagged for a closer look

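For 47 genes described here the lactic acid effect without TGF-beta differed between 24 and 72 h by edgeR's interaction test (adjusted p below 0.05). The values below are the log2 fold change at 24 h minus that at 72 h. In 37 of the 47 the fold changes at both times had opposite signs, and in 10 the same sign. Over all genes tested the sign was the same in 44.0%. The 47 were chosen by a difference between times, which in itself makes opposite signs more likely, so these shares are not directly comparable. An opposite sign alone does not show a reversal, because several values at 72 h lay within their SE of 0. Examples are Vim (0.004 ± 0.12), Sesn3 (-0.01 ± 0.09) and Tbl1xr1 (-0.01 ± 0.07 SE). None of the differences was called without the replicate block, and the 72 h control has 2 libraries, without the first of which 28 genes in all were called for this interaction.

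The difference was positive and the sign opposite at 72 h for the metabolic and mitochondrial genes Pdk2 (2.80), Slc25a23 (1.25), Pink1 (0.65) and Bnip3l (0.56), and for the early and signalling genes Nr4a1 (0.95), Egr3 (0.94), Egr2 (0.81), Egr1 (0.76), Ltb (0.78) and Plekhg2 (1.03). The same held for the quiescence and cell cycle genes Gimap3 (0.55), Gimap5 (0.46), Btg2 (0.68), Rbl2 (0.57), Zfp36l1 (0.79), Sesn1 (0.60) and Sesn3 (0.43), and for the regulators Zbtb16 (1.74), Epas1 (1.14), Runx1 (0.85), Stat2 (0.75), Bcl9 (0.74) and Tbl1xr1 (0.36). It also held for Dact3 (2.65), Mturn (1.45), Calcoco1 (1.26), Ppm1j (1.11), Gsn (1.05) and Tecpr1 (0.62).

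Slc16a3 (1.20), Mr1 (1.14), Art2b (1.00), H2-DMa (0.97), Ptprf (0.96), Ak4 (0.80), Gm19585 (0.78), Samhd1 (0.46) and Unc13d (0.34) had a positive fold change at both times that was larger at 24 h. The difference was negative for Ptpn5 (-1.35), Asns (-1.08), Sesn2 (-0.93), Vim (-0.75), Abcg1 (-0.71), Cdc6 (-0.64), Scd2 (-0.62), Dusp4 (-0.42) and Mcm5 (-0.39), of which only Scd2 was also lower at 72 h.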

How the results depend on the processing

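The number of genes called for lactic acid at 24 h was 614, and without the replicate block, that is, without the pairing, 12. It was 1953 with the 24 h libraries alone, 2622 with the 6 compared libraries alone, 146 with those 6 and no block, and 932 without the filter on low counts, and it lay between 177 and 445 with 1 library left out; DESeq2 with the block (716) and RLE scaling (604) stayed within 1.5 times. All 614 kept their direction wherever they were tested. Of the 78 genes named as called, 75 were called by DESeq2, 77 with RLE scaling, 73 without the filter, 12 without the block and 41 with each library left out. The interaction with TGF-beta called 0 genes in the main setting, 16 with the 24 h libraries alone, 31 without the filter and 0 to 2 with 1 library left out. The interaction with time called 674 genes, 0 without the replicate block, 1014 with DESeq2, 1074 without the filter and 28 to 1356 with 1 library left out. The cause of these shifts was not tested. Precision is limited by 3 libraries a group.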

Other observations

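Ribosomal protein genes were examined as 2 families, both chosen after their values were seen; 1.15% of all genes were called lower. Of 78 tested mitochondrial ribosomal protein genes 72 had a negative fold change, 9 were called lower and none higher, with a median log2 fold change of -0.14 at 24 h and 0.14 at 72 h. Mrpl45 (100.9 to 80.9 CPM, log2 fold change -0.32 ± 0.06 SE) and Mrpl54 (49.2 to 38.4 CPM, -0.36 ± 0.08 SE) are examples. Of 77 cytosolic ribosomal protein genes 72 were negative and 2 called lower, with medians of -0.09 and 0.15. The 3 sestrins, which restrain mTORC1, split: Sesn1 and Sesn3 (293, 283 and 332 CPM to 380, 410 and 426 CPM) rose by 0.38 and 0.42, while Sesn2 fell.

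Other genes were again chosen after their values were seen. Smad3, a mediator of TGF-beta signals, was at 40.8, 39.6 and 49.9 CPM without and 65.2, 64.3 and 77.3 CPM with lactic acid, in medium without added TGF-beta (log2 fold change 0.67 ± 0.12 SE, adjusted p = 0.00149). Tgfbr2, a TGF-beta receptor, rose by 0.32, with overlapping groups and no call in any fit without 1 library, and Smad7, a feedback inhibitor of that pathway, was not called (0.35, adjusted p = 0.148). Socs3, an inhibitor of cytokine receptors, rose by 0.71, and the transcription factors Runx1 and Ikzf3 rose by 0.56 each. Samhd1, which degrades nucleotides, went from 332, 420 and 541 CPM to 510, 596 and 887 CPM, and the autophagy gene Tecpr1 from 58.3, 66.4 and 83.4 CPM to 84.0, 94.5 and 140 CPM. Ak4, a mitochondrial adenylate kinase, rose by 0.89, the actin-severing gene Gsn by 0.95, and Ly6a, the surface antigen Sca-1, by 0.47. Rxra, the partner receptor of PPARs, fell from 67.0 ± 3.48 to 46.2 ± 4.79 CPM, though it was not called in any fit without 1 library.

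Among genes with few counts, the gut-homing receptor gene Ccr9 had 30 counts in the 3 controls and 107 with lactic acid (log2 fold change 1.89 ± 0.30 SE, adjusted p = 0.0009), and Edn1, the precursor of endothelin 1, 83 and 15 counts (-2.38 ± 0.41 SE, adjusted p = 0.00157). Scin, an actin-severing gene, had 21 and 3 counts, with a call that was lost without any 1 library.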
